A study of Mus musculus with 2 samples.

Results

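The genes described here make NAD, convert it to NADP or pass electrons on from NADH and NADPH. They were chosen by role as 8 listed genes: Nampt, Nmnat1 and Nmnat3 of the salvage route, Naprt and Qprt of the routes from nicotinic acid and from tryptophan, the NAD kinase gene Nadk, the transhydrogenase gene Nnt, and Aifm2. Probes were assigned to them through the RefSeq accession that the array design gives for each probe. This gave 9 probes for 7 of the 8 genes, out of 20618 genes with a probe. No probe was matched to Nnt, the mitochondrial enzyme that makes NADPH from NADH, and its level is not analysed here. The match rests on the accessions that the RefSeq table pairs with each gene, and a probe under an accession that the table does not hold was left unnamed. The missing match thus does not show that the array lacks an Nnt probe, and it does not depend on signal. The C57BL/6J substrain is known to carry a deletion within Nnt, and the labels do not name a substrain.

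The samples were leukaemic mouse cells of B-cell acute lymphoblastic leukaemia, taken from bone marrow and sorted by the fluorescence ratio of SoNar into a SoNar-high and a SoNar-low population. SoNar is a genetically encoded sensor that binds NADH and NAD+, and its excitation ratio follows the cytosolic NADH to NAD+ ratio. Both populations came from 8-week mice of the strain given as C57BL. The sample titles add N-myc to high and low, and the labels do not say what this stands for, which transgene or agent gave rise to the leukaemia, or how many mice were pooled. The question of the comparison here is whether genes that set the amount and form of NAD differ in transcript level between cells sorted on NADH and NAD+.

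Each population was measured once, with total RNA labelled with Cy3 on 1 Agilent mouse array. With 1 array per group no difference has a replicate check and no p-value can be given. Scan session and group cannot be told apart, and in sorted bulk samples fewer cells of a type cannot be told apart from less RNA per cell. Spots well above background, as marked by the scanner software, made up 72.9% of all spots for SoNar-high cells and 44.8% for SoNar-low cells. No member probe was saturated and none was marked as an outlier.

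Mammalian cells rebuild most of their NAD from nicotinamide, which is released whenever sirtuins, PARP enzymes or CD38 consume NAD. Nicotinamide phosphoribosyltransferase, the product of Nampt, catalyses the rate-limiting step of this salvage, and the adenylyl transferases of the NMNAT family complete NAD in separate compartments. NAD kinase adds a phosphate to give NADP, the cofactor of reductive synthesis and peroxide defence.

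The salvage genes Nampt and Nmnat3 were lower on the SoNar-high array, by 1.86-fold and 1.79-fold, while Nmnat1 had a difference near 0 that changed sign with the scaling and the 2 probes of Nadk disagreed. Naprt, Qprt and Aifm2 were dim and stood well above background in SoNar-high cells alone. In all, 4 of the 7 genes were measured on both arrays, as were 51% of all genes with a probe. Of these 4 genes, 0 were higher and 0 were lower in SoNar-high cells by 2-fold or more. Among the 10517 genes measured on both arrays, 4.87% were that much higher and 1.68% that much lower. With median scaling, which lowers every log2 difference by 0.61, Nampt and Nmnat3 passed 2-fold on the lower side, as did 31.4% of all measured genes, while 1.32% were that much higher. A negative difference was found for 3 of the 4 genes and for 63.2% of all measured genes. Differences are on the log2 scale, as SoNar-high minus SoNar-low, and their median over the 4 genes was -0.54, against -0.17 over all measured genes. Levels are log2 of the processed signal relative to the 75th percentile of the array's spots.

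**Figure D1:**
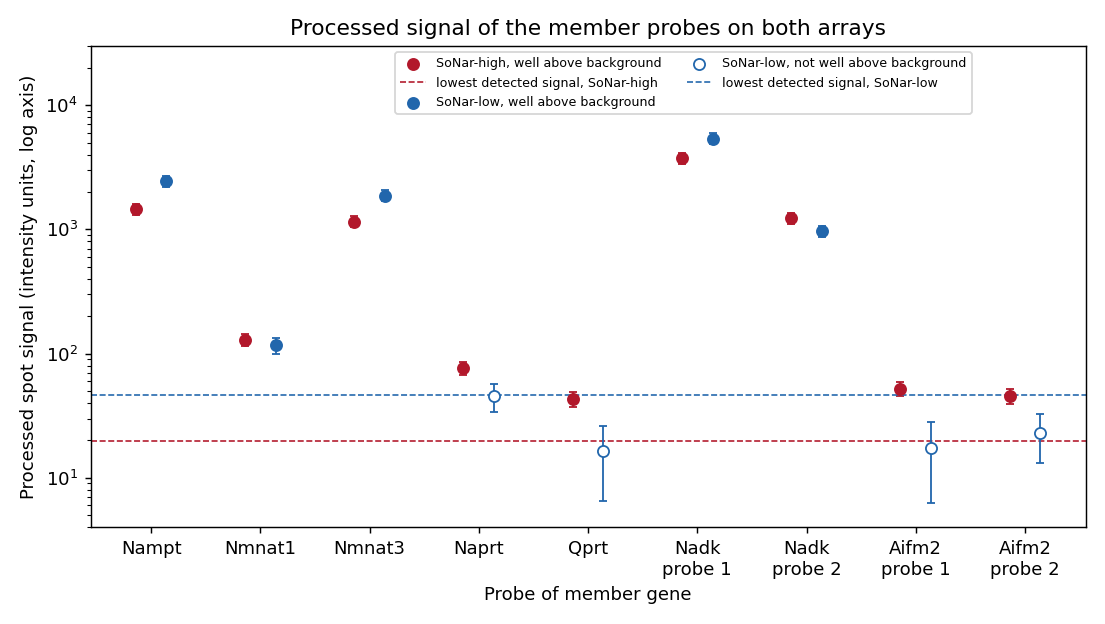
Processed spot signal (log axis, intensity units) of the 9 member probes on the SoNar-high (red) and SoNar-low (blue) arrays; bars are the error that the scanner software gives for the spot, open points are spots not well above background, and dashed lines mark the lowest detected signal on each array, 19.7 and 46.4. Nampt, Nmnat3 and 1 Nadk probe lie higher on the SoNar-low array, and the Naprt, Qprt and Aifm2 points of that array lie under its line.

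Nampt had a processed signal of 1449 ± 145 (software error of the spot, 1 array) in SoNar-high cells and 2437 ± 244 in SoNar-low cells. The SoNar-low signal was the higher one and the error bars did not overlap. These bars come from the scanner software, hold no spread between arrays and do not test the difference. After scaling, the level was 1.46 in SoNar-high cells and 2.36 in SoNar-low cells, a log2 difference of -0.89 with a propagated software error of 0.20. This is 1.86-fold more on the SoNar-low array. The difference lay at percentile 3.25 of all measured genes, so that few genes had a lower one. In this scaling bright genes as a whole had lower differences than dim ones, and for this reason each member was also placed among genes whose mean level lay within 0.5 of its own. Among the 1351 genes of like level, whose median difference was -0.32, Nampt lay at percentile 3.33.

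The nicotinamide mononucleotide adenylyl transferases follow Nampt in the route. Nmnat3 encodes the mitochondrial form, and it had a signal of 1156 ± 116 in SoNar-high cells and 1873 ± 188 in SoNar-low cells. The SoNar-low signal was again the higher one, without overlap of the software error bars. The levels were 1.14 and 1.98, and the log2 difference of -0.84 had a software error of 0.20. Nmnat3 lay at percentile 4.55 of all measured genes and at 5.60 of 1465 genes of like level.

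Nmnat1 encodes the nuclear form, and its signal was 129 ± 13.7 in SoNar-high cells and 116 ± 16.1 in SoNar-low cells. These signals overlapped within their errors. The scaled levels were -2.02 and -2.03, a log2 difference of 0.011 with a software error of 0.25. This was percentile 64.1 of all measured genes and 38.6 of 1587 genes of like level, whose median was 0.18.

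The difference of Nmnat3 minus that of Nmnat1 was -0.85, with a software error of 0.32. Of the 11 other processing settings, only quantile normalization, cyclic loess, normexp and the authors' value table could change this gap. The others shift both genes alike or leave genes of 1 probe unchanged, which keeps the gap at -0.85 by construction. The gap was -0.65 with normexp and -0.33 with cyclic loess. It was -0.30 with quantile normalization and -0.22 in the authors' value table, both inside the software error. That the 2 genes differed unequally thus depended on the scaling. The difference of Nampt minus that of Nmnat3 was -0.054, within the software error of 0.29. Each of these genes was measured by 1 probe.

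The placement of Nampt and Nmnat3 among genes of like level varied little over the main and the 11 other settings. Nampt lay between percentile 3.27 and 4.52, and Nmnat3 between 5.44 and 7.58. Most of these settings could not move it far by construction. The 2 other percentile or median scalings shift all genes alike. The filter and probe settings leave genes of 1 probe unchanged and alter only the genes they are set among. Quantile normalization, cyclic loess, normexp and the authors' value table could move them. There Nampt lay between percentile 3.40 and 4.52, and Nmnat3 between 5.87 and 7.34. The log2 differences of both genes were negative throughout, from -1.51 to -0.66 for Nampt and from -1.45 to -0.62 for Nmnat3. Among all genes, however bright, their percentiles rose to as much as 13.9 and 15.6 in the authors' value table. That table gives Nampt a log2 value of 10.90 in SoNar-high and 11.56 in SoNar-low cells, and Nmnat3 one of 10.58 and 11.22. Nmnat1 changed sign with the scaling, from -0.60 with median scaling to 0.22 when the percentile was taken over the spots that both arrays detected.

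**Figure D2:**
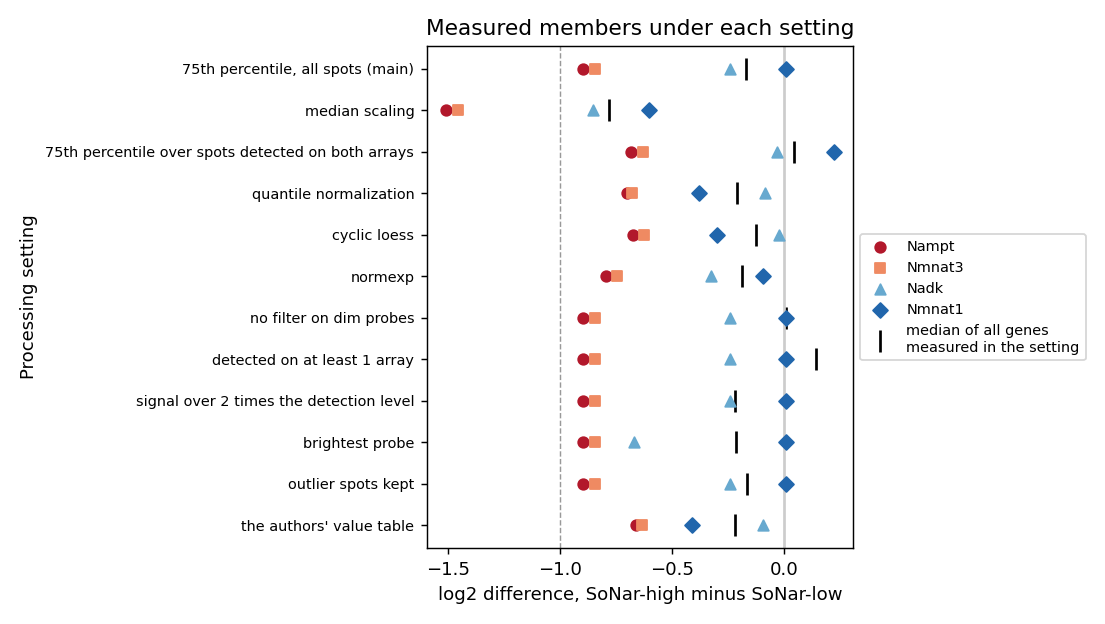
Difference on the log2 scale (SoNar-high minus SoNar-low) for the 4 members measured on both arrays under the main setting and 11 alternatives; black ticks are the median of all genes measured in that setting, and the dashed line marks a 2-fold lower level. Nampt and Nmnat3 stay left of the median of all genes in every row, while Nmnat1 lies on either side of 0.

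The promoters of the salvage genes are shown because Nampt and Nmnat3 were lower together and Nmnat1 was not in the main scaling. The RefSeq table of build GRCm38.p6 holds windows for 6 of the members. The 250 bases before the annotated start are given, on the gene's strand. They lie at chr12:32820085-32820334 on the plus strand for Nampt, at chr9:98296320-98296569 on the plus strand for Nmnat3, and at chr4:149485173-149485422 on the minus strand for Nmnat1, as 1 of its 2 listed windows. Capitals mark GGGCGG, the GC box bound by SP family factors, or its reverse complement CCGCCC.
Nampt: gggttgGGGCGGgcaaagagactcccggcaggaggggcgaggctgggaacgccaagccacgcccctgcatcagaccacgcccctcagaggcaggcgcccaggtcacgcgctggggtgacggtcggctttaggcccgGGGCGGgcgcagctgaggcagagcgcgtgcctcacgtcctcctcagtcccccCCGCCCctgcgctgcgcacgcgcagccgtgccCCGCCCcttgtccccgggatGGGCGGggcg
Nmnat3: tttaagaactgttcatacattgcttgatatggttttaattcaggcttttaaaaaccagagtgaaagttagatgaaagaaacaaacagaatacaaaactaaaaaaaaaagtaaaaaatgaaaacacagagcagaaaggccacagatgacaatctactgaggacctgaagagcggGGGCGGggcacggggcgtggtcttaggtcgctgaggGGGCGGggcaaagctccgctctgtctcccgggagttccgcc
Nmnat1: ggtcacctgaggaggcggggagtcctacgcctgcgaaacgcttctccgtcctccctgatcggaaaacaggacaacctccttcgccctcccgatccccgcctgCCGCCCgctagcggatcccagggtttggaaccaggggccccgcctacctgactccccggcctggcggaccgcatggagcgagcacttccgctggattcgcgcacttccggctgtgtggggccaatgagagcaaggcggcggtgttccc
The GC box occurred 5 times in the Nampt window, 2 times in that of Nmnat3 and 1 time in that of Nmnat1. Of 32851 promoter windows of the same length 32.7% hold it at least 1 time. How many windows hold it more often was not counted, so the numbers of matches have no background. The Nampt window had 75.6% G and C and 27 CpG dinucleotides, the Nmnat3 window 45.6% and 9, and the Nmnat1 window 67.6% and 23. The median over all windows was 52.4% and 6. The E-box letters CACGTG, bound by MYC family proteins, were searched on both strands as well, since the sample titles name N-myc. They were in none of these 3 windows and, among the 8 windows of members, only in 1 of the 2 of Nadk. Of all windows 6.02% hold them. The cyclic AMP response element TGACGTCA was in 0 of the 8 windows and in 1.55% of all windows. These matches describe letters only and do not show binding.

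Nadk encodes the cytosolic NAD kinase and was the only member with 2 probes detected on both arrays. The probe A_55_P1982668 had a signal of 3740 ± 374 in SoNar-high cells and 5382 ± 538 in SoNar-low cells, a log2 difference of -0.67 with a software error of 0.20. The probe A_66_P136899, listed under the same transcript, had 1227 ± 123 and 973 ± 97.9, a log2 difference of 0.19 with a software error of 0.20. The first was higher on the SoNar-low array and the second somewhat higher on the SoNar-high array. Their differences lay 0.86 apart, with a software error of 0.29 for this gap. Such a disagreement was not rare on these arrays. Among 2021 genes with exactly 2 measured probes, 20.4% had a gap at least as wide, the median gap was 0.43, and 45.4% had probes of opposite sign. The mean of the 2 Nadk probes was -0.24, at percentile 43.8 of all measured genes, and with the brighter probe alone it was -0.67. No direction can be given for Nadk from these probes.

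**Figure D3:**
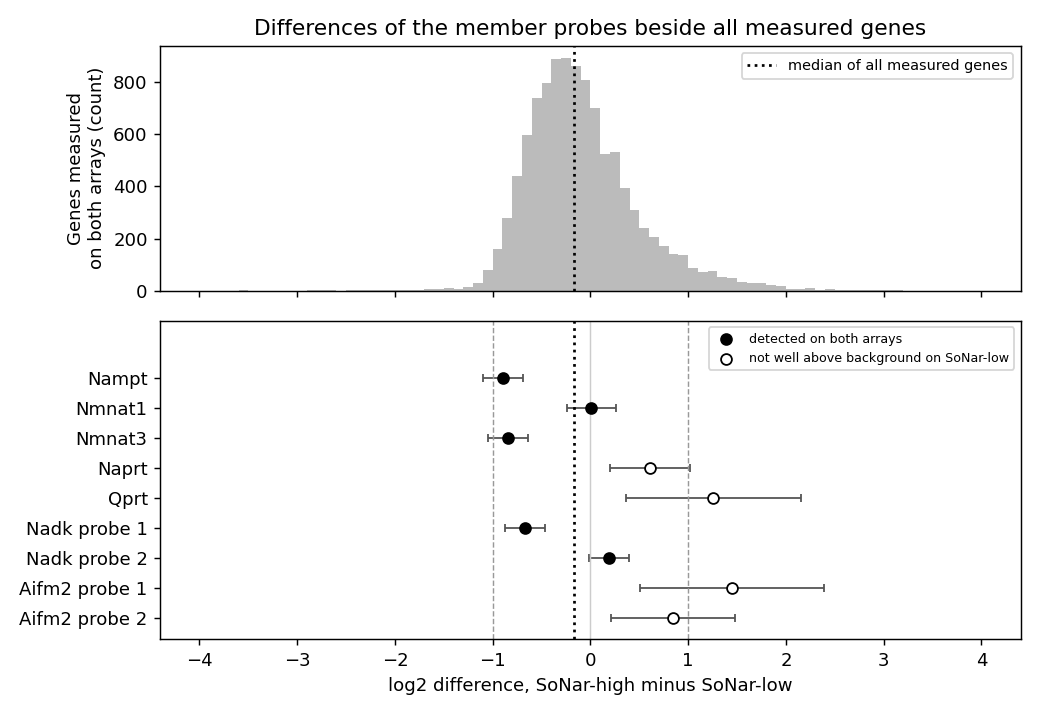
Top, the number of genes by log2 difference (SoNar-high minus SoNar-low) for the 10517 genes measured on both arrays; bottom, the difference of each member probe with the propagated software error, open where the SoNar-low spot was not well above background. Nampt and Nmnat3 lie near the lower edge of the distribution, the probes of Nadk lie on either side of 0, and the open points carry the widest errors.

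Naprt encodes the phosphoribosyltransferase that starts NAD synthesis from nicotinic acid. Its probe had a signal of 76.1 ± 8.90 in SoNar-high cells and 45.2 ± 11.6 in SoNar-low cells. The first was well above background and the second was not, lying just under the lowest detected signal there, 46.4. Set against that lowest signal after scaling, Naprt was 1.49-fold higher in SoNar-high cells in the main scaling. This is a nominal bound and not a firm minimum, since the probe's own log2 difference was 0.61 with a software error of 0.41. The bound sets the scaled level on the SoNar-high array against the lowest detected level of the SoNar-low array or the probe's own level, whichever is higher. On the log2 scale this bound was 0.57. It was 0.78, or 1.72-fold, with the percentile over spots that both arrays detected, 0.0056 with normexp background correction, and under 0 with median scaling (-0.043), cyclic loess (-0.047), quantile normalization (-0.012) and the authors' value table (-0.013), where Naprt had 6.30 and 6.27. A higher level of Naprt in SoNar-high cells thus depended on the scaling.

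Qprt encodes the enzyme that turns quinolinate, the end of the tryptophan route, into nicotinic acid mononucleotide. Its signal was 43.3 ± 5.97 in SoNar-high cells and 16.4 ± 9.93 in SoNar-low cells. Aifm2, also known as FSP1, encodes an oxidoreductase that uses NADH or NADPH to reduce ubiquinone and so guards membranes against lipid peroxidation. Its 2 probes had 52.0 ± 6.72 and 45.4 ± 6.15 in SoNar-high cells and 17.3 ± 11.1 and 22.8 ± 9.54 in SoNar-low cells. All 3 probes were brighter on the SoNar-high array. In scaled level, the Qprt probe and the second Aifm2 probe lay under the lowest detected level of the SoNar-low array, and no fold is given for them. For the first Aifm2 probe the nominal bound was 1.02-fold, which 5 of 7 other settings took under 0 on the log2 scale. The software error of its log2 difference was 0.94, and no direction is read from this bound.

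Detection on the SoNar-high array alone was common at this brightness. It held for 3 of the 7 members and for 26.5% of all genes with a probe, against 0.0534% for the SoNar-low array alone. Among 2124 spots with a SoNar-high signal within 0.25 log2 units of that of Naprt, 36.5% were well above background on the SoNar-low array. The share was 6.26% for 2971 spots like Qprt, and 11.6% and 7.33% for spots like the first and second Aifm2 probe. For Qprt and Aifm2, a SoNar-low level equal to the SoNar-high one would lie close to or under that array's limit.

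Other genes of NAD metabolism were grouped by role into 6 lists that together hold 58 genes beside the members. Of these, 37 were measured on both arrays, 12 were well above background in SoNar-high cells alone and 9 in neither sample. Among all genes with a probe these shares were 51%, 26.5% and 22.5%. Of the 37, 0 were higher and 1 was lower in SoNar-high cells by 2-fold or more, against 4.87% and 1.68% of all measured genes. With median scaling 11 of the 37 (29.7%) were that much lower, against 31.4% of all genes, and with detection on at least 1 array 7 of 49 (14.3%) were that much higher, against 20.0% of all genes in that setting. The lower count was 2 (5.41%) with quantile normalization, cyclic loess or the authors' value table, against 3.33%, 2.85% and 4.09% of all genes. It was 0 with normexp or a demand for over 2 times the detection level, against 0.571% and 1.36% of all genes. In the main setting the median log2 difference of the 37 genes was -0.17, equal to that of all measured genes at this precision.

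In the salvage list 5 of 9 genes were measured, members included, with a median of -0.65 and 3 values below 0. Below 0 lay the bright genes Nampt, Nmnat3 and Pnp, and above it the dim genes Nmnat1 and Slc12a8. In the main scaling bright genes as a whole had lower differences than dim ones. All 5 genes lay below 0 with median scaling, quantile normalization, cyclic loess and normexp, and in the authors' value table. In these settings, in the order given, 9382, 7068, 6410, 7158 and 7202 of all 10517 measured genes lay below 0. Pnp, which splits nicotinamide riboside and purine nucleosides, had a log2 difference of -0.65, and Slc12a8, reported as a carrier of nicotinamide mononucleotide, was the highest at 0.21. Nmrk1, a nicotinamide riboside kinase, was detected in SoNar-high cells alone, with signals of 51.1 and 42.1. Nmnat2, the cytosolic adenylyl transferase best known from axons, was also detected there alone, at 30.1 against 9.98.

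In the list of nicotinic acid and tryptophan genes 4 of 11 were measured, with a median of 0.033. Haao, which makes the precursor of quinolinate, was the highest at 0.44, and Kmo, the kynurenine monooxygenase gene, the lowest at -0.23. Nadsyn1, the NAD synthetase that finishes this route, had a difference of -0.12. The tryptophan dioxygenase genes Tdo2, Ido1 and Ido2 were detected in SoNar-high cells alone, with signals of 22.5 to 38.2 there. Kynu and Acmsd were well above background on neither array.

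In the NADP and carrier list all 6 measured genes of 8 lay below 0, with a median of -0.43. Of all measured genes 63.2% lay below 0, and genes of like level to Nadk had a median of -0.33. The 6 include Nadk, whose 2 probes had opposite signs. Nudt13, a NADH pyrophosphatase gene, was the lowest at -0.51. Nadk2, the mitochondrial NAD kinase, had -0.50, and Slc25a51, the mitochondrial NAD carrier, also -0.50. Naxe, an epimerase that repairs damaged NADH and NADPH, was the highest at -0.15. None reached a 2-fold difference. Taking the percentile over the spots that both arrays detected raises every difference by 0.21, which takes Naxe above 0. Of the 6 genes 5 lay below 0 there, with quantile normalization, with cyclic loess and in the authors' value table. Of all 10517 measured genes, 4862, 7068, 6410 and 7202 lay below 0 in these settings, in the order given.

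Of the quinone oxidoreductases, the relatives of Aifm2 in function, 7 of 10 were measured, with a median of -0.11. Aifm3 had the 1 difference past 2-fold, at -1.35, with signals of 35.3 in SoNar-high and 81.6 in SoNar-low cells. The first of these signals lies under the lowest one detected on the SoNar-low array. With normexp the difference was -0.87, which is not past 2-fold, and Aifm3 was not measured when over 2 times the detection level was demanded. Cyb5r3, a NADH-cytochrome b5 reductase, was the highest at 0.79, from 1 of its 2 probes. Aifm1, the mitochondrial founder of the Aifm family, had 0.018, and Nqo1 was well above background on neither array.

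Among genes that consume NAD or clear nicotinamide 10 of 15 were measured, with a median of -0.15. Parp10, a mono-ADP-ribosyltransferase gene, was the lowest at -0.83 and Parp4 the highest at 0.39. Parp1, the DNA damage sensor that is a main consumer of NAD, had 0.13, and the NAD glycohydrolase genes Cd38 and Bst1 had -0.17 and -0.18. Nnmt, which methylates nicotinamide and so withdraws it from salvage, was detected in SoNar-high cells alone. For the NADPH producers 9 of 13 were measured, with a median of -0.27 and 8 values below 0, as were 63.2% of all measured genes. With the percentile over the spots that both arrays detected 5 of the 9 were below 0, as were 4862 of all 10517 measured genes. Mthfd2l was the lowest at -0.75 and Aldh1l1 the highest at 0.25, both of folate metabolism, while G6pdx of the pentose phosphate pathway had -0.11.

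**Figure D4:**
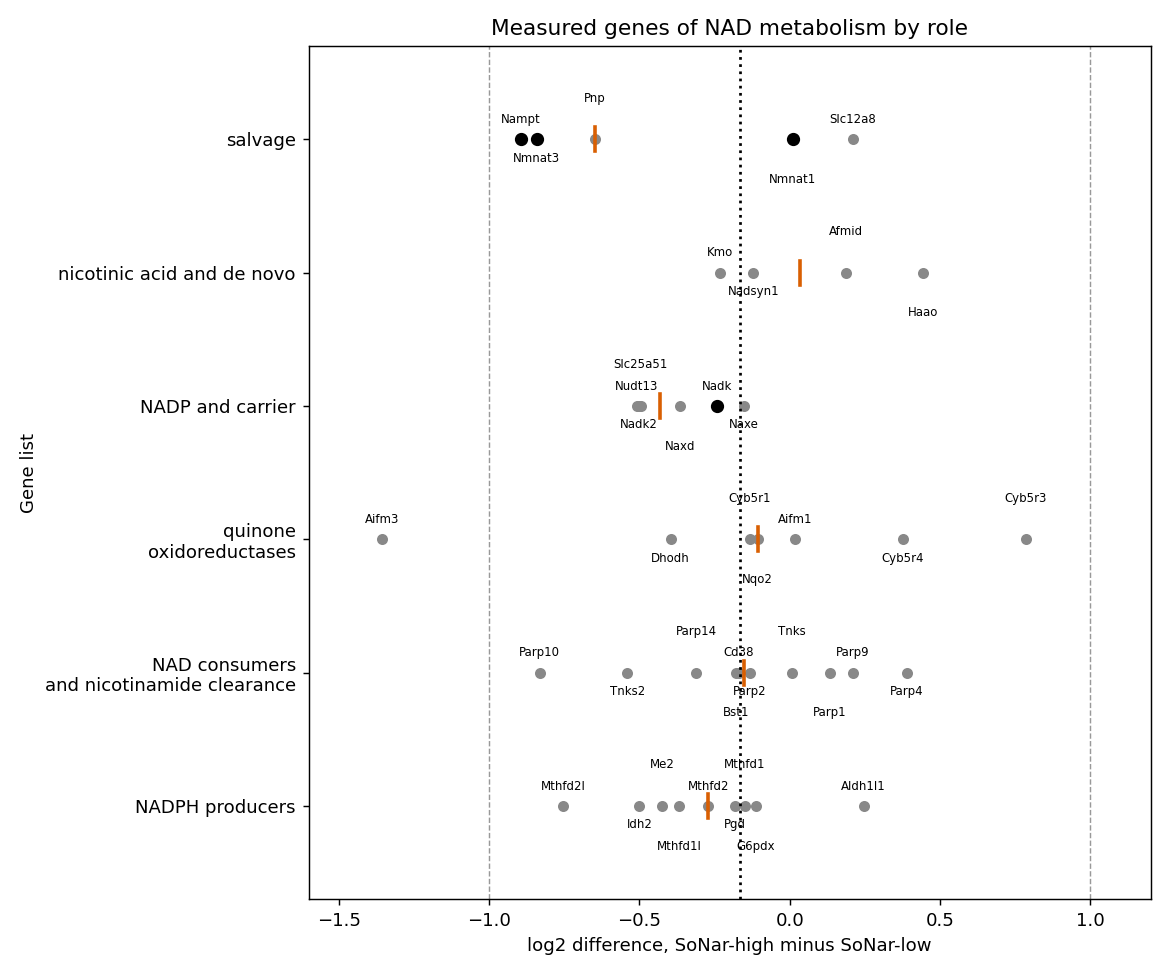
Difference on the log2 scale (SoNar-high minus SoNar-low) for each gene measured on both arrays in 6 lists of NAD metabolism; black points are members, grey points other genes, orange bars the list medians, the dotted line the median of all measured genes, and dashed lines a 2-fold difference. In this scaling Nampt, Nmnat3 and Pnp, the brighter of the measured salvage genes, lie apart from the others on the lower side, and Aifm3 alone passes a 2-fold difference.

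Markers of the leukaemic lineage and of other marrow cells moved as follows. Of 12 B lineage markers 9 were measured, 0 were 2-fold different, and the median was -0.36, from Ebf1 at -0.92 to Pax5 at 0.14, while Rag1, Il7r and Igll1 were well above background on neither array. The summed signal of the B lineage list was 44503 in SoNar-high and 51821 in SoNar-low cells. Of 14 neutrophil markers 11 were measured, with a median of 0.70, and 3 were 2-fold or more higher in SoNar-high cells, namely Ngp at 1.29, Retnlg at 1.04 and Ctsg at 1.00. Prtn3 was the lowest at -0.32, and the summed neutrophil signal was 26945 against 19537. For erythroid genes it was 16146 against 23580 and for stromal and endothelial genes 9416 against 13355, both lower in SoNar-high cells, unlike their medians. Most of each of these 2 sums came from 1 gene, Hemgn at 14153 against 22791 and Alpl at 7773 against 12517. All sums are of unscaled signals over every probe of a list, detected or not. The sum was 865 against 399 for monocyte and macrophage, 2194 against 1946 for T cell and 433 against 216 for natural killer genes. These lists held few measured genes. Of 4 erythroid genes 2 were past 2-fold, Hba-a1 at 1.88 and Ermap at 1.67, while Hemgn was at -0.83. Of 3 T cell genes 2 were, Cd4 at 1.72 and Cd3e at 1.26, while Lck was at -0.94. Both natural killer genes were, Prf1 at 1.22 and Gzma at 1.12, as was 1 of 2 monocyte and macrophage genes, Csf1r at 1.25, with Adgre1 at 0.37. Of 5 stromal and endothelial genes Kdr at 1.54 and Lepr at 1.02 were, while Alpl was at -0.83. Ermap rested on 1 of 3 probes, Cd4 and Kdr on 1 of 2 and Lepr on 1 of 4. Of all measured genes 4.87% were 2-fold or more higher in the main setting. The medians of the lists of other cell types lay above 0, between 0.69 and 1.26 in the main setting. They lay between 0.077 and 0.64 with median scaling, where 0 neutrophil and 0 natural killer genes passed 2-fold. In the main scaling dim genes as a whole had higher differences than bright ones. In the authors' value table the medians lay between 0.24 and 1.00, and with quantile normalization between 0.29 and 1.00. There, too, 0 natural killer genes passed 2-fold. Nampt and Nmnat3 lay below 0 in each of these settings, and the part of other cells in the members' differences was not tested.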

How the data were processed

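The deposited scanner files give spot intensity values, background-subtracted and detrended within each array by Agilent Feature Extraction 11.0.1.1, per the file headers; the submitters' processing notes name version 9.1. Detection and outlier calls are other flag columns of the same deposited files. The authors' deposited value table holds log2 values with steps that no label or header states. Its columns share a median of 5.90 and correlated with their own arrays with r = 0.995 and 0.994 across probes, which leaves scale and direction clear and the centring unknown. It served as an alternative.

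Of 43020 non-control spots, 685 with an outlier mark were left out. Repeat spots were averaged, and a gene is the mean of its probes well above background on both arrays. Of 39085 probes 27115 were named through RefSeq accessions and 11970 were not. The 75th percentile was taken over all non-control spots, although under 50% were detected on the SoNar-low array; taking it over the spots that both arrays detected was an alternative. The median SD of the difference between repeat spots was 0.15 over 201 probes, none of a member. The software error of a difference is propagated from both spots and covers 1 array a group. The array annotation is of build mm9 and the promoter table of GRCm38.p6, so coordinates are given for promoter windows alone.

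The text names all members, the highest, lowest and 2-fold genes of each list, and further genes by role. Genes beyond that rule (Pnp, Nadk2, Slc25a51, Nadsyn1, Nmrk1, Nmnat2, Aifm1, Nqo1, Parp1, Cd38, Bst1, Nnmt, G6pdx, Tdo2, Ido1, Ido2, Kynu, Acmsd, Rag1, Il7r and Igll1), the motifs and the placement among genes of like level were chosen after values were seen. The members and lists were chosen with earlier results of these data known. The script was tested on simulated data. Python 3.11.15, numpy 2.4.6, pandas 2.3.3, R 4.3.3 and limma 3.58.1 were used.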

Additional observations from a re-analysis of the deposited data

How the results depend on the processing

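No paired analysis was possible because there was 1 array a group, and none could be left out. The median difference of measured members, -0.54, was -1.15 with median scaling, -0.33 with the percentile over spots that both arrays detected, -0.76 with the brightest probe, and 0.011 both with no filter on dim probes and with detection on at least 1 array. The count of members at least 2-fold lower went from 0 to 2 (Nampt and Nmnat3) with median scaling, which lowers every difference by 0.61. The count at least 2-fold higher went from 0 to 2 (Qprt and Aifm2) with each of the last 2 filters, which admit values not well above background, and in these settings 13.5% and 20.0% of all genes were that much higher. These changes follow from the settings' construction. Under the other settings the counts stayed at 0 and the median moved by less than the spread of repeat spots. Nadk ranged from -0.85 to -0.021 and Nmnat1 was below 0 in 5 of 11 alternatives. The number of members detected on both arrays was 4 in the main setting, with a demand for over 2 times the lowest detected signal, and with outlier spots kept. The dimness of Naprt, Qprt and Aifm2 on the SoNar-low array limits what can be said of them.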
